A study of Homo sapiens with 6 samples.

Results

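The constitutive proteasome subunits were followed across 6 Affymetrix expression arrays of HSC-3 cells, an established line grown from a squamous cell carcinoma of the human tongue. Members were the genes of the core particle, the regulatory particle, the activators PA28-gamma and PA200 and the inhibitor PI31, taken by symbol from PSMA1 to PSMA7, PSMB1 to PSMB7, PSMC1 to PSMC6, PSMD1 to PSMD14, PSME3, PSME4 and PSMF1. Of these 37 symbols, 33 had a probe set annotated to that symbol alone, among 19775 such genes on the array, and PSMA6, PSMC5, PSMD7 and PSMD13 had none. The 33 genes were measured by 68 of 54675 probe sets, and each gene is given by its probe set of highest mean signal over the 6 arrays. All 33 reached the signal minimum for testing.

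Arrays numbered 1 to 3 carried RNA of cells labelled as overexpressing trypsin-2 (TAT-2 in the titles), and another 3 carried RNA of cells labelled as holding a control vector. All cells were HSC-3, harvested after 48 h of culture. The labels do not say whether a line was 1 clone or a pool, or which promoter drives the transgene. The samples are not described as separate cultures, so every p-value below covers the spread among these arrays, part of which may be technical.

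The proteasome degrades proteins tagged with ubiquitin. Its barrel-shaped core particle stacks outer rings of alpha subunits, which gate the entrance, on inner rings of beta subunits, of which PSMB5, PSMB6 and PSMB7 carry the proteolytic sites. The regulatory particle caps the barrel: its ATPases unfold the substrate and its other subunits bind and remove ubiquitin. Under interferon-gamma PSMB8, PSMB9 and PSMB10 replace the 3 catalytic beta subunits and form the immunoproteasome, and when proteasome activity is short the transcription factor NFE2L1 raises the subunit genes together.

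Values are MAS5 signals, a linear brightness in arbitrary units, and the 6 arrays had medians of 14.8 to 17.6. The first principal component held 45.6% of the variance and set the replicate 1 arrays of both groups apart, and the second held 21.7% and separated the groups. PRSS2, the gene of trypsin-2, went against the labels: its signal was 20.4, 13.8 and 14.6 with the trypsin-2 label and 19.6, 80.8 and 83.2 with the vector label. The limma log2 difference was -1.12 (adjusted p = 0.467, and 0.0506 when arrays of the same number were compared). All but the last 2 of these values lay near the signal minimum for testing, 15.2. A further PRSS2 probe set read 19.9, 17.9 and 19.5 against 22.6, 38.0 and 54.5 (-0.59, limma adjusted p = 0.560). The groups are therefore called by their labels throughout, and every direction below is that of the labels. Its probe sets carry a suffix for probes that can cross-hybridise, trypsinogen genes are near-identical, and whether the probes detect the transgene was not tested. Squamous markers were present on every array, with SFN up to 9210, DSG3 between 152 and 197 and summed signals of the 5 measured markers of 18795 to 21878 with the trypsin-2 label and 16375 to 23620 with the vector label. With the brightest probe set of each gene, summed signals of 6 fibroblast markers were 131 to 137 and 112 to 136, those of 4 leukocyte markers 82.1 to 123 and 65.9 to 116, and those of 4 endothelial markers 41.6 to 55.8 and 41.2 to 49.4, in the same order. COL1A1, a collagen among the fibroblast markers, had another probe set of almost the same mean signal that read 32.3, 49.8 and 56.5 with the trypsin-2 label and 93.6, 120 and 125 with the vector label (-1.06, limma adjusted p = 0.117), while the one in the sum differed by 0.22. CDH1, the epithelial cadherin among the squamous markers, was called lower in the limma fit that takes the replicate number as a block and so compares arrays of the same number (-0.44, adjusted p = 0.00826, and 0.527 without the block), as was that further COL1A1 probe set (adjusted p = 0.000881 with the block). The part of these markers in the subunit values was not tested.

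Most subunit genes differed little between the labelled groups. The median difference over the 33 subunits was -0.005 on the log2(signal + 16) scale, beside -0.002 over all 12151 genes tested, and single subunits ran from -0.40 (PSMF1) to 0.33 (PSMD3). In 23 of the 33 (69.7%) the difference was under 0.1 in size, beside 41.4% of all genes, and in 29 it was under 0.2, beside 68.7%. The subunits were also measured more tightly than most genes, with a median standard error of 0.10 beside 0.16. Their chosen probe sets were bright, with group means of 412 (PSMD3, vector label) or more, while tested genes went down to 15.2. The fit lets the standard error follow brightness, and the values over all genes were not matched for brightness. With group as the only term, limma called 0 of 33 subunits at an adjusted p under 0.05, where 7 of all genes (0.0576%) were called, 5 of them lower (0.0411%). At an unadjusted p under 0.05, 2 subunits (6.06%) passed, PSMA7 and PSMB6, both lower, beside 9.38% of all genes in either direction and 4.63% lower. The 95% intervals of the 33 differences had a median half-width of 0.23 in this fit and of 0.15 with the replicate number as a block.

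With the replicate number as a block, 3 subunits fell, PSMA7, PSMB6 and PSMF1, and 0 rose. That is 9.09% of the subunits called lower, beside 3.46% of all genes called lower, 3.5% called higher and 6.96% in either direction. At an unadjusted p under 0.05 in that fit 6 subunits passed, 4 lower and 2 higher, beside 22.3% of all genes. Without the replicate 1 arrays the blocked fit called 1 subunit lower, PSMF1, beside 1.83% of all genes called lower (222, with 264 called higher). Without the replicate 2 arrays it called PSMD3 higher and 0 subunits lower, beside 219 higher and 186 lower of all 12151 genes. Without the replicate 3 arrays it called PSMA7, PSMB6, PSMF1 and PSMD10 lower, beside 374 higher and 428 lower of all genes. In the fit with group alone PSMA7, PSMB6 and PSMF1 had adjusted p-values of 0.603, 0.321 and 0.785. The block calls were 0 of 33 when dim probe sets were kept in the test, beside 270 of 19775 genes. They were also 0 of 33 when limma's intensity trend was left out, where 0 of all 12151 genes were called. When the array medians were centred, PSMF1 was the 1 subunit called, beside 743 of 12151 genes (347 lower). Each subunit's arrays were also compared for overlap: the groups did not overlap for 2 of 33 subunits (6.06%), PSMB6 lower and PSMD8 higher, beside 15.7% of all genes (7.83% lower and 7.87% higher).

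**Figure D1:**
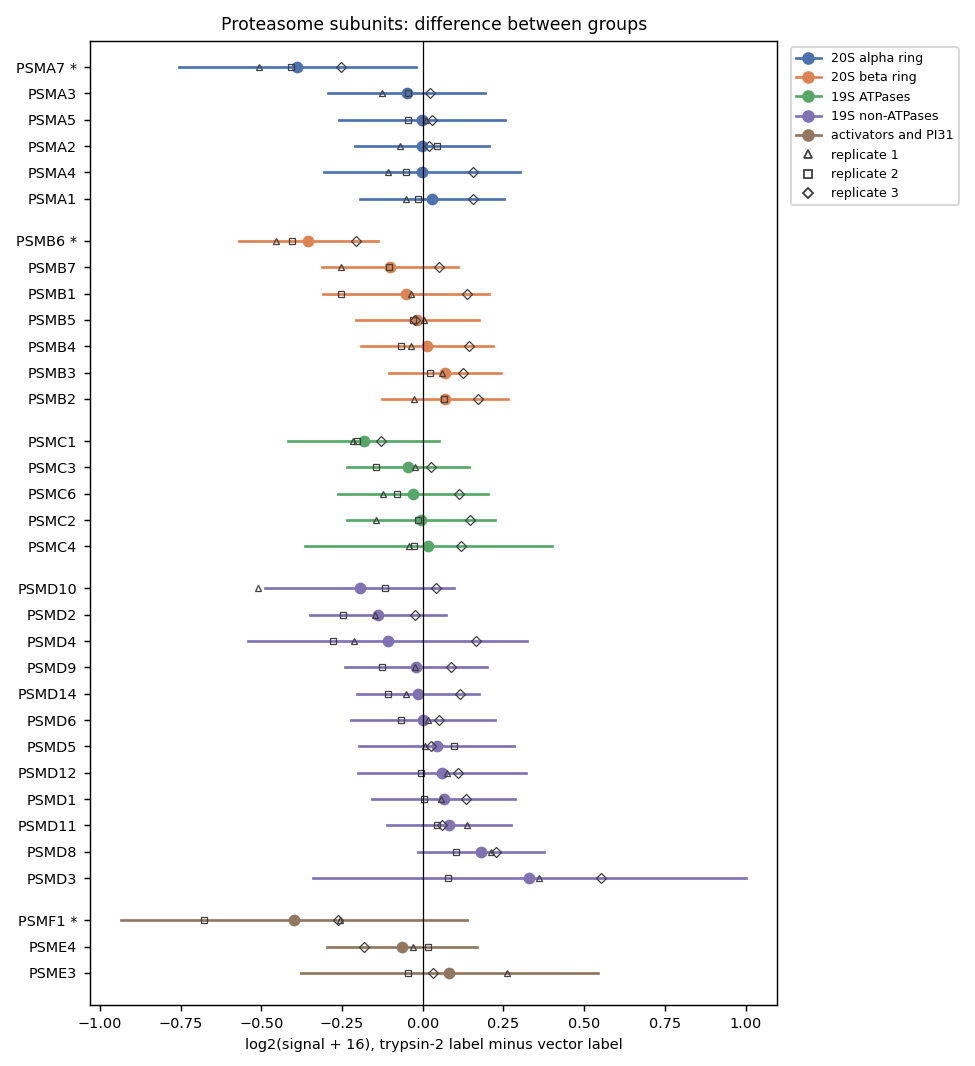
Difference in log2(signal + 16) between the trypsin-2 label and the vector label for 33 subunits, sorted within 5 classes. Large points are the mean differences, and small open symbols are the differences within replicate numbers 1 to 3. Bars are limma's 95% intervals in the fit with group alone. A star marks genes called in the other fit, with the replicate block, whose intervals are not drawn. Most points lie within 0.1 of 0, with PSMF1 lowest at -0.40 and PSMD3 highest at 0.33.

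The subunits did not differ alike within the 3 replicate numbers. Within number 1 the median difference of the 33 was -0.038 and 22 were negative, within number 2 it was -0.046 and 24 were negative, and within number 3 it was 0.060 and 7 were negative. Over all genes these medians were -0.003, 0.007 and -0.003. The direction of the set as a whole thus differed by array pair. Differences had 1 sign in all 3 numbers for 11 subunits (33.3%), 5 lower and 6 higher, beside 42.5% of all genes.

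Among the alpha subunits, which form the outer rings of the core, 6 of 7 were measured, with a median difference of -0.002. PSMA7, the alpha4 subunit on chromosome 20, gave signals of 1714, 2435 and 2496 on the arrays labelled overexpressing (mean 2215 ± 435, SD, n = 3). On the arrays labelled control vector it gave 2444, 3232 and 2975 (2884 ± 402, n = 3). Each vector array was higher than the trypsin-2 array of its own number, while the groups as a whole overlapped. The difference was -0.39 (SE 0.16; 1.31-fold higher with the vector label; limma adjusted p = 0.603), and with the block the SE was 0.07 and the adjusted p 0.00855. It was not called in the blocked fit without the replicate 1 arrays (adjusted p = 0.0694).

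A further probe set of PSMA7 read 771, 921 and 1038 with the trypsin-2 label and 1128, 1243 and 1355 with the vector label. All 3 vector values lay above all 3 trypsin-2 values, with a difference of -0.45 (limma adjusted p = 0.358, and 0.003 with the block). The suffix of the chosen PSMA7 probe set marks probes that can cross-hybridise, and that of the further one marks probes shared among transcripts. The alpha subunit of next smallest p was PSMA3, with 3282, 3979 and 4156 against 3585, 4106 and 4091. Its groups overlapped, with a difference of -0.05 (SE 0.11, limma adjusted p = 0.976). PSMA1, PSMA2, PSMA4 and PSMA5 differed by between -0.002 and 0.029.

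All 7 beta subunits were measured, with a median difference of -0.016, and PSMB6 had the lowest of the 7. PSMB6 makes the beta1 subunit, whose caspase-like site cuts after acidic residues. Its signal was 1535, 1400 and 1545 on the arrays labelled overexpressing (1493 ± 81.0, SD, n = 3) and 2108, 1858 and 1783 with the vector label (1916 ± 170, n = 3). Every vector array was above every trypsin-2 array. The difference was -0.35 (SE 0.09, 95% interval -0.57 to -0.14; 1.28-fold higher with the vector label), with a limma adjusted p of 0.321, and of 0.0135 with the block. Within replicate numbers 1 to 3 it was -0.45, -0.40 and -0.21. The blocked call was lost without the replicate 1 arrays (adjusted p = 0.0904), and PSMB6 had no further probe set to compare.

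The other catalytic subunits were called in neither fit. PSMB5, the beta5 subunit of chymotrypsin-like activity and the target of bortezomib, gave 1832, 1783 and 1654 against 1827, 1819 and 1682, values that were almost the same in each replicate number. Its difference was -0.02 with a 95% interval of -0.21 to 0.17 (limma adjusted p = 0.989). PSMB7, the beta2 subunit of trypsin-like activity, gave 3447, 3960 and 4336 against 4109, 4259 and 4185. The trypsin-2 arrays spread on both sides of the narrow vector range, and the difference was -0.10 (SE 0.09, adjusted p = 0.911). PSMB1 to PSMB4, which have no active site, differed by between -0.05 and 0.07.

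**Figure D2:**
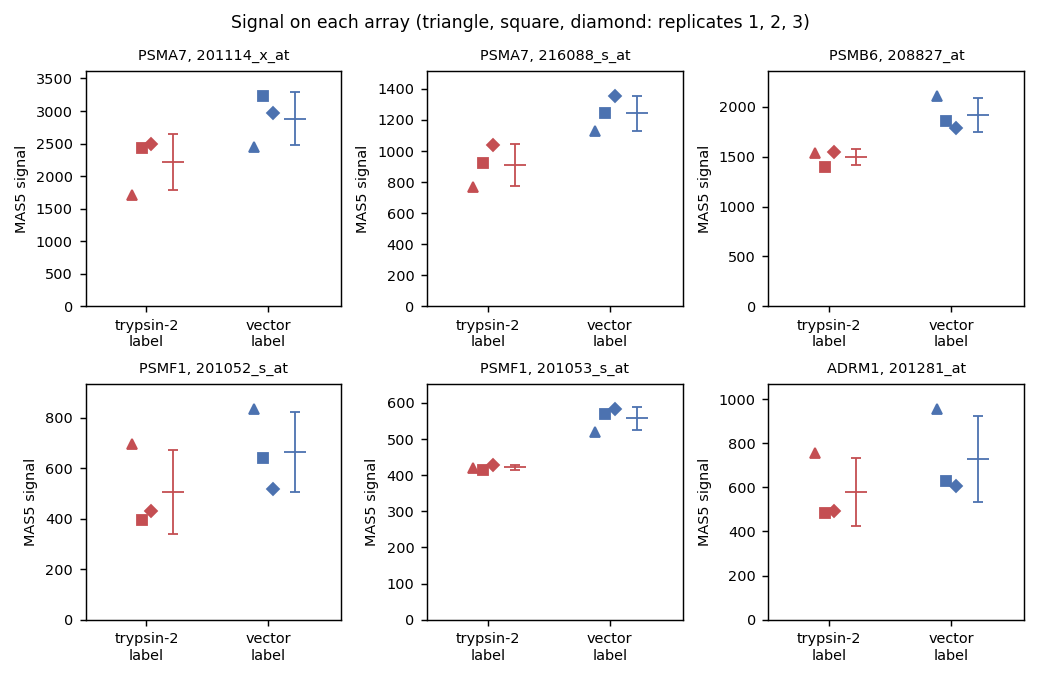
MAS5 signal (linear, from 0) on each array for PSMA7 and PSMF1, with 2 probe sets each, for PSMB6 and for ADRM1; triangles, squares and diamonds are replicates 1, 2 and 3, and bars are the group mean ± SD. The groups do not overlap for PSMB6, for the further probe set of PSMA7 or for that of PSMF1, and replicate 1 is the highest array of each group for ADRM1.

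Of the immune counterparts of the 3 catalytic subunits, PSMB9 and PSMB8 were called higher with the replicate block and PSMB10 was not, where 3.5% of all genes were called higher. PSMB9, which replaces PSMB6, gave 446, 828 and 841 with the trypsin-2 label (705 ± 224, n = 3) and 343, 617 and 582 with the vector label (514 ± 149, n = 3). Replicate 1 was the lowest array in each group and the groups overlapped, but the trypsin-2 array was the higher in every number. The difference was 0.43 (SE 0.28, limma adjusted p = 0.829), and with the block the SE was 0.07 and the adjusted p 0.00496. PSMB8, which replaces PSMB5, gave 370, 480 and 525 against 270, 421 and 401, again higher in every number, with a difference of 0.33 (adjusted p = 0.781, and 0.0312 with the block). The blocked call of PSMB8 was lost when dim probe sets were kept (adjusted p = 0.111), with centred medians (0.0707), without the replicate 1 arrays (0.149) and without the intensity trend (0.239), and that of PSMB9 without the trend (0.176). PSMB10, which replaces PSMB7, gave 66.9, 144 and 128 against 96.8, 115 and 130, with no common direction (-0.06, adjusted p = 0.988, and 0.876 with the block).

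Each immune subunit was then set against its constitutive counterpart within each array, as the difference of their log2 values. The PSMB9 to PSMB6 ratio was 0.79 ± 0.46 (SE, n = 3 against 3) higher on the log2 scale with the trypsin-2 label, by 0.82, 0.82 and 0.72 within the 3 numbers. The PSMB8 to PSMB5 ratio was 0.35 ± 0.28 higher, by 0.43, 0.21 and 0.40. The PSMB10 to PSMB7 ratio differed by 0.04 ± 0.24, with -0.19, 0.39 and -0.08. The first 2 ratios were higher in 3 of 3 numbers, yet their groups overlapped, with the replicate 1 arrays the lowest of each group. Without the replicate 1 vector array they were 0.46 and 0.13 higher, and without the replicate 1 trypsin-2 array 1.10 and 0.52. In a two-sided exact permutation test, which cannot go below 0.1 with 3 arrays a group, p was 0.3, 0.4 and 0.9, and 0.6, 0.6 and 0.9 after Benjamini-Hochberg adjustment over the 3 ratios. That test and its SE hold the shift of the replicate 1 arrays. Within same-numbered arrays the SE of the differences was 0.03, 0.07 and 0.18 for PSMB9, PSMB8 and PSMB10, and a two-sided exact sign-flip permutation test, which cannot go below 0.25 with 3 pairs, gave p = 0.25, 0.25 and 1.

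**Figure D3:**
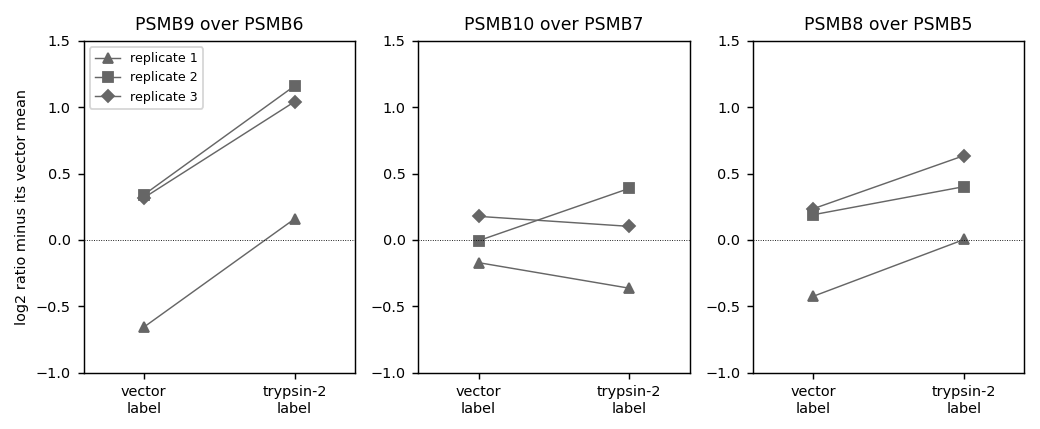
Log2 ratio of each immune catalytic subunit to its constitutive counterpart on each array, less the mean of that ratio over the 3 vector arrays; lines join arrays of the same replicate number. The PSMB9 to PSMB6 lines rise by 0.82, 0.82 and 0.72, and the PSMB10 to PSMB7 lines run in both directions.

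Of the 6 regulatory ATPases, 5 were measured, with a median difference of -0.031 and 0 called in either fit. PSMC1 (Rpt2), whose tail opens the alpha gate, gave 2004, 2255 and 2480 with the trypsin-2 label and 2333, 2599 and 2714 with the vector label. The vector array was the higher in each number, by 0.22, 0.20 and 0.13, but the groups overlapped. Its difference was -0.18 (SE 0.10, limma adjusted p = 0.765, and 0.131 with the block). PSMC3 (Rpt5) gave 1343, 1235 and 1312 against 1364, 1366 and 1288, groups that overlapped, with a difference of -0.05 (SE 0.08, adjusted p = 0.966). PSMC2, PSMC4 and PSMC6 differed by between -0.031 and 0.017. A dimmer PSMC2 probe set gave 98.3, 96.8 and 96.3 against 130, 143 and 112, with no overlap. Its difference was -0.34 (limma adjusted p = 0.566, and 0.106 with the block). Another, dimmer still, also had no overlap and differed by -0.41 (adjusted p = 0.624, and 0.176 with the block). The probe sets of PSMC2 thus differed in size.

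The PSMD genes, grouped by symbol as non-ATPase subunits of the regulatory particle, were the largest class, with 12 of 14 measured. Their median difference was 0.022, and 0 were called in either fit. PSMD8 (Rpn12), a lid subunit, gave 1448, 1321 and 1347 with the trypsin-2 label (1372 ± 67.1, SD, n = 3) and 1249, 1230 and 1148 with the vector label (1209 ± 53.5, n = 3). All trypsin-2 arrays lay above all vector arrays, the reverse of PSMB6. The difference was 0.18 (SE 0.09, limma adjusted p = 0.674, and 0.144 with the block). PSMD10, the oncoprotein gankyrin that assists assembly of the regulatory particle, gave 1085, 1376 and 1550 against 1553, 1492 and 1507. The replicate 1 array with the trypsin-2 label was low and its replicate 3 array lay within the vector range, and the difference was -0.51, -0.12 and 0.04 by number and -0.20 on average (SE 0.13, adjusted p = 0.829).

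PSMD3 (Rpn3), another lid subunit, had the highest positive difference of the 33. It gave 753, 380 and 440 against 583, 359 and 295, with the replicate 1 array the highest in each group and the groups overlapping. The difference was 0.33 with an SE of 0.29 (adjusted p = 0.909), and with the block an SE of 0.09 (adjusted p = 0.0601). PSMD2 (Rpn1), a scaffold that docks ubiquitin shuttles, differed by -0.14 (SE 0.09, adjusted p = 0.836), and PSMD4 (Rpn10), a ubiquitin receptor, by -0.11 (SE 0.19, adjusted p = 0.965). PSMD14 (Rpn11), the deubiquitinase that strips ubiquitin from substrates, differed by -0.01 (SE 0.08). The remaining 6, PSMD1, PSMD5, PSMD6, PSMD9, PSMD11 and PSMD12, lay between -0.02 and 0.08.

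PSMF1 encodes PI31, which inhibits the core particle in vitro and acts as an adaptor for its transport in cells. It had the lowest difference of the 33 subunits. Its signal was 696, 394 and 430 with the trypsin-2 label (506.5 ± 165, SD, n = 3) and 834, 639 and 519 with the vector label (664 ± 159, n = 3). The vector array was higher in each number, by 0.26, 0.68 and 0.26, and the groups overlapped, with replicate 1 the highest array in each. The difference was -0.40 (SE 0.23, 95% interval -0.93 to 0.14, limma adjusted p = 0.785), and with the block the SE was 0.09 and the adjusted p 0.0250. Without the replicate 1 arrays the blocked adjusted p was 0.0288, and with centred medians 0.0282. The blocked call of PSMF1 was lost when dim probe sets were kept (adjusted p = 0.131), without the intensity trend (0.245) and without the replicate 2 arrays.

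A further PSMF1 probe set gave 421, 414 and 429 against 521, 569 and 583. Here every vector array exceeded every trypsin-2 array, with a difference of -0.39 (adjusted p = 0.271, and 0.009 with the block), and the remaining PSMF1 probe sets differed by -0.30 and -0.39 without being called. PSME4, the activator PA200 known from histone degradation, gave 704, 702 and 598 against 719, 694 and 681, overlapping values with a difference of -0.07 (SE 0.10, adjusted p = 0.957). A dimmer PSME4 probe set gave 61.7, 83.1 and 74.1 against 98.9, 133 and 99.3, with no overlap (-0.50, adjusted p = 0.462, and 0.031 with the block), so the probe sets of this gene differed. PSME3, the nuclear activator PA28-gamma, gave 1386, 838 and 875 against 1153, 866 and 855, a difference of 0.08 (SE 0.20, adjusted p = 0.981).

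Over the subunits with several tested probe sets, 19 in number, all probe sets of a gene had 1 sign in 11. Of the 30 tested probe sets that were not the brightest of their gene, 9 had the opposite sign to the chosen one. With the block 3 of the 30 were called lower, for PSMA7, PSMF1 and PSME4, and 0 higher. Of all genes, each by its brightest probe set, 3.46% were called lower and 3.5% higher. PSMA7 and PSMF1 were also called by their chosen probe sets, so these calls are not of further genes.

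Promoter sequence was set beside these values because NFE2L1 binds the antioxidant response element in subunit promoters. The core letters TGACNNNGC were searched on both strands (GCNNNGTCA on the other) in the 250 bases before each start site, in RefSeq windows of GRCh38.p14. A match was present in 10.9% of 35116 windows and in 13.2% of 27305 genes. Of the 28 subunits with a window, 7 held a match, PSMA4, PSMB3, PSMD3, PSMD5, PSMD9, PSMD12 and PSME4, and their median difference was 0.04 (range -0.07 to 0.33). The 21 with a window and no match had a median of -0.002 (range -0.40 to 0.18). The other 5, PSMA7, PSMB1, PSMB6, PSMB7 and PSMD4, had no window here, so PSMA7 and PSMB6 were not searched, and their median was -0.11 (range -0.39 to -0.05). A CCAAT box (CCAAT, or ATTGG on the other strand) was present in 14 of the 28 subunits and in 37% of genes. Sequences are given for the 2 subunits at the ends of the range of differences, PSMD3 with a match whose last base lies 28 bases before the start site and PSMF1 with 2 start sites and no match, and PSMB3, a core subunit with a match 95 bases before the start site and a difference of 0.07 (SE 0.08). Capitals mark the match, and all 4 windows are on the plus strand, at chr17:39980557-39980806 (PSMD3), chr17:38752491-38752740 (PSMB3), chr20:1113013-1113262 (PSMF1, first window) and chr20:1118352-1118601 (PSMF1, second window).
PSMD3: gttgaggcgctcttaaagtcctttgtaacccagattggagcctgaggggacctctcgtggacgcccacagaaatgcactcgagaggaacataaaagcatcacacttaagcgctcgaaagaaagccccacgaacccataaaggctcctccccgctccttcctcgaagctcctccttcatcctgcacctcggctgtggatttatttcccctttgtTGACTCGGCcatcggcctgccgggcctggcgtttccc
PSMB3: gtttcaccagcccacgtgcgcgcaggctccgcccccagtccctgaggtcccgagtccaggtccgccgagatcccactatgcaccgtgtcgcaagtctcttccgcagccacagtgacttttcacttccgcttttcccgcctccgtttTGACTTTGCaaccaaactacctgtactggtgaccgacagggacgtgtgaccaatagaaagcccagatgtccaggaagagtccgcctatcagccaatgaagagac
PSMF1 first window: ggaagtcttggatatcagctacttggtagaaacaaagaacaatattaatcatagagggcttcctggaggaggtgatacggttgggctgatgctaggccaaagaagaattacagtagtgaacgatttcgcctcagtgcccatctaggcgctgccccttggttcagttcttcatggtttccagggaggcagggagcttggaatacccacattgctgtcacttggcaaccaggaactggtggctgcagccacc
PSMF1 second window: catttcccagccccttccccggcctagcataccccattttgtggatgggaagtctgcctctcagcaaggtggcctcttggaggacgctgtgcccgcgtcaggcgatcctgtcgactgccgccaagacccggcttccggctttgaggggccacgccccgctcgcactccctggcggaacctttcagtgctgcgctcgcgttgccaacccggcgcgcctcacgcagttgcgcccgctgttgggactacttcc
A match is a description of these letters and not a bound site.

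The replicate 1 arrays differed from the others by more than the labelled groups did. Replicate 1 less the mean of replicates 2 and 3, averaged over both groups, had a median of -0.15 over the 33 subunits, beside 0.01 over all genes. In the subunits this shift ran from -0.49 (PSMD4) to 0.83 (PSMD3). It was negative in 22 subunits, beside 5842 of all 12151 genes. It was larger in size than the group difference in 30 of 33 (90.9%), beside 64.1% of all genes. The shift of a subunit in one group followed that in the other (r = 0.93 over 33 genes, which share the arrays and are not independent). PSMF1 (0.63), PSME3 and PSMC4 were higher in replicate 1 as PSMD3 was, while PSMA7 (-0.43) was lower. The block takes up this shift, and the standard error of PSMF1 was 0.23 without the block and 0.09 with it.

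**Figure D4:**
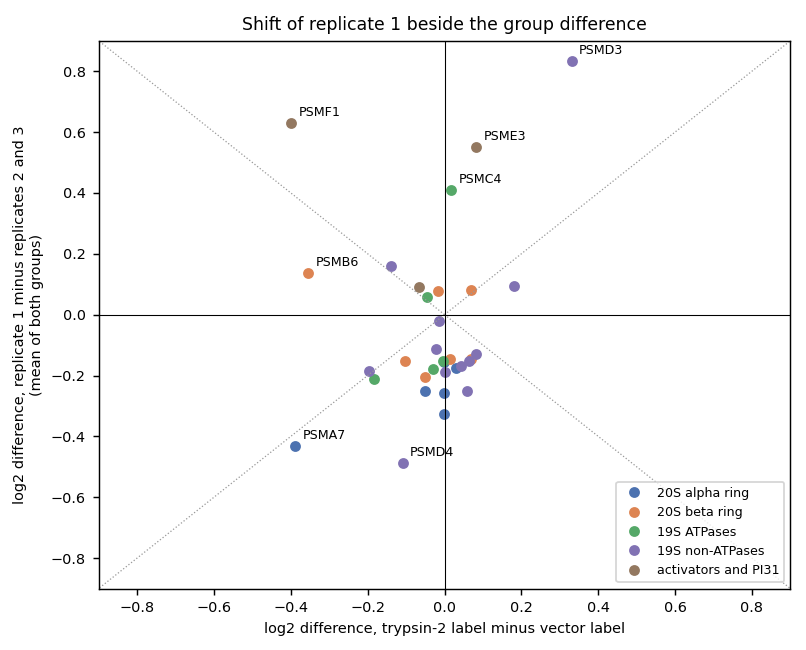
For each of 33 subunits, the log2 difference between the labelled groups (x axis) and the log2 difference of replicate 1 from replicates 2 and 3, as the mean of both groups (y axis); dotted lines mark equal size. In 30 subunits the replicate 1 shift is the larger, from -0.49 for PSMD4 to 0.83 for PSMD3.

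The 33 subunits lie on 14 chromosomes, and PSMA7 and PSMF1 are the 2 on chromosome 20. Genes of chromosome 20 were mostly lower with the trypsin-2 label: over its 351 tested genes the median difference was -0.21, 83.2% were negative, and with the block 78 were called lower and 2 higher. Of the 20 tested genes nearest to PSMA7, 10 on each side, 19 were lower, with a median of -0.33. Of the 20 nearest to PSMF1, 18 were lower, also with a median of -0.33, and 9 were called lower with the block. The values of these 2 subunits, -0.39 and -0.40, thus stood close to the medians of their neighbours.

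PSMB6 lies on chromosome 17, where the median over 746 tested genes was -0.007. Of its 20 nearest tested genes 16 were lower, with a median of -0.14, and 4 were called lower with the block. Outside chromosome 20 the 31 subunits had a median difference of -0.002, and with the block PSMB6 was the 1 called. Across the 33 subunits the difference of the subunit and the median of its neighbours had r = 0.68, and 0.39 over the 31 outside chromosome 20, as a description of genes measured on the same arrays. The part of these regional differences in the values of PSMA7, PSMF1 and PSMB6 was not tested.

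**Figure D5:**
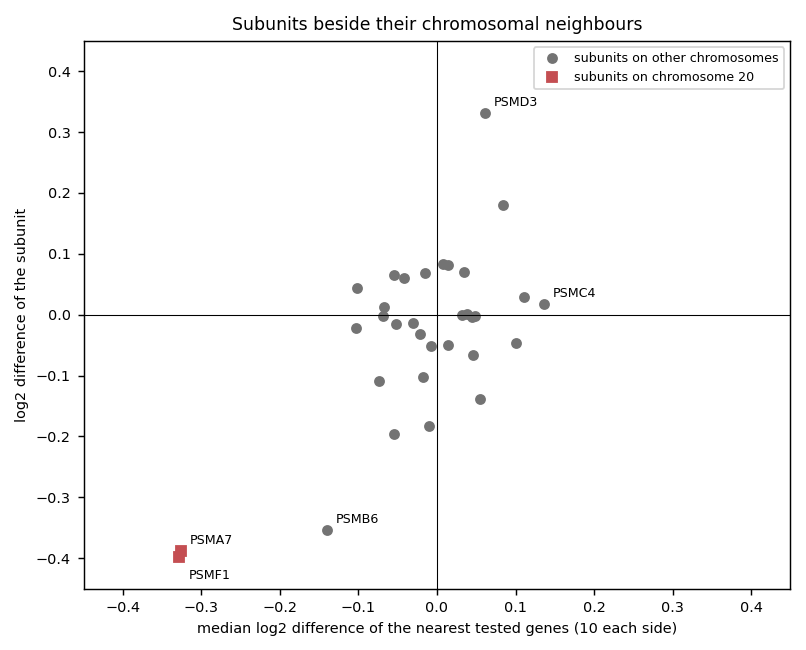
Log2 difference of each of 33 subunits (y axis) against the median log2 difference of its nearest tested genes, 10 on each side except for PSMB1 near a chromosome end, with 12 in all (x axis); squares are the 2 subunits on chromosome 20. PSMA7 and PSMF1 lie at the lower left, with neighbour medians of -0.33, and the other subunits have neighbour medians of -0.14 to 0.14.

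Genes that work with the proteasome were read from 6 further lists, of which 31 of 37 genes were tested. Their median difference was 0.002, with 0 called by limma with group alone. At an unadjusted p under 0.05 in that fit 3 passed, UFD1 higher and PSMG2 and USP14 lower, beside 9.38% of all genes in either direction. With the block 3 were called higher and 1 lower, beside 3.5% and 3.46% of all genes. PSMB8 and PSMB9, described above, were the 2 of 4 tested immunoproteasome genes called. They are neighbours on chromosome 6 and share 16 of their 20 nearest tested genes, whose medians were 0.20 and 0.15. Each is itself among the 20 of the other, so these medians include the other called gene.

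Of 7 proteasome-associated proteins, 1 was called, ADRM1 (Rpn13), a ubiquitin receptor of the regulatory particle. ADRM1 gave 756, 482 and 494 with the trypsin-2 label and 955, 631 and 606 with the vector label. The vector array was higher in every number and replicate 1 was the highest of each group, with a difference of -0.33 (SE 0.22, limma adjusted p = 0.83, and 0.0148 with the block). ADRM1 also lies on chromosome 20 and shares 14 of its 20 neighbours with PSMA7, and each of these genes is among the 20 of the other. Its blocked adjusted p was 0.0646 without the replicate 1 arrays, 0.0631 with dim probe sets kept, 0.0943 with centred medians and 0.219 without the intensity trend. Of 8 shuttle and VCP genes, UFD1, the VCP cofactor that delivers ubiquitinated substrates, was called higher with the block: 2488, 2609 and 2866 against 1961, 2187 and 2161. Its groups did not overlap, with a difference of 0.33 (SE 0.09, adjusted p = 0.312, and 0.0128 with the block). Under the same 4 changes its blocked adjusted p was 0.0659, 0.0768, 0.143 and 0.223. Of the 20 tested genes nearest to UFD1 on chromosome 22, 2 were lower and 6 were called higher with the block, and their median was 0.32.

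In the other 3 lists 0 genes were called in either fit. Of 6 assembly chaperones, PSMG2 and PSMG1, partners that build the alpha ring, differed by -0.24 and -0.18 (limma adjusted p = 0.582 and 0.701, and 0.0847 and 0.211 with the block). These 2 of 6 had no overlap between groups, beside 15.7% of all genes (7.83% lower). The 20 nearest tested genes of PSMG2 on chromosome 18 had a median of -0.28, with 6 called lower with the block, and those of PSMG1 a median of 0.03. Of 3 tested genes of the NFE2L1 pathway, NGLY1, which processes NFE2L1, differed by -0.12 (SE 0.12, adjusted p = 0.926), NFE2L2 by 0.06 (SE 0.09, adjusted p = 0.952) and NFE2L1 itself by 0.07 (SE 0.10, adjusted p = 0.957). Of 3 tested ubiquitin and E1 genes, UBA1, the main ubiquitin-activating enzyme, differed by 0.16 (SE 0.26, adjusted p = 0.958) and UBB, which encodes ubiquitin, by -0.03 (SE 0.07, adjusted p = 0.978).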

How the data were processed

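RNA of HSC-3 cells was hybridised as biotin-labelled cRNA, made from 2 µg of total RNA, on 6 arrays. Each deposited value is the intensity of a probe set on an array, on a linear scale; the submitters' processing notes name MAS5, without a version. The mean signal between percentiles 2 and 98 was 100.01 on every array, so the authors' scaling was kept. MAS5 subtracts mismatch probes, which makes dim signals noisy.

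Groups and replicate numbers came from the sample titles. Signals were taken as log2(signal + 16), so differences of dim genes are understated. Of 54675 probe sets, 62 are controls, 41097 have 1 gene symbol, 1801 several and 11777 none, and 41043 of the former were matched to a GRCh38.p14 gene table. Probe sets with a mean at or above the median of the non-control ones (signal 15.2) were tested, 27307 in all, representing 12151 genes. limma 3.58.1 in R 4.3.3 (lmFit, eBayes with trend) compared the groups, with p-values adjusted by Benjamini-Hochberg over all tested probe sets. Same-numbered arrays correlated in their deviations from the group means (0.64, 0.39 and 0.25), each above 0.1, so the numbers were taken as pairs and used as a block in a second fit. Numbers 2 and 3 were not told apart by this check: trypsin-2 array 2 with vector array 3 gave 0.32, and 3 with 2 gave 0.20, while array 1 gave -0.33 to -0.52 with the other numbers. The numbers are those of the titles, which do not call same-numbered arrays pairs. That they are pairs was taken from these correlations, and which of numbers 2 and 3 goes with which rests on the titles alone.

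All 37 subunits are accounted for. Array values are given for subunits called in either fit and for the 2 of smallest p in each of 5 classes, and of each related list up to 4 called genes or the 2 of smallest p are named. The members and lists were chosen with earlier results of these data known. The fit was tested on simulated data with planted differences larger than that of any subunit, so that test does not cover differences as small as theirs. Alternatives were the pseudocount, filter, normalization, probe set rule, intensity trend, replicate block, replicate 1 as a batch, and leaving out arrays.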

Additional observations from a re-analysis of the deposited data

How the results depend on the processing

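The median difference of the subunits stayed between -0.06 and 0.05 under all 18 alternatives, and no called subunit changed sign. Subunits called (0 with group alone) numbered 3 with the replicate block, 3 with replicate 1 as a batch, and, with the block, 3 at pseudocount 1 or 64, at filter percentile 30 and with the mean of probe sets, 4 at filter percentile 70 (PSMD3 added) or after quantile normalization (PSMC1 added), and 1 with centred medians (PSMF1) or without _x_at and _s_at probe sets (PSMB6, of 23 left). Blocked fits leaving out replicate 1, 2 or 3 of both groups, chosen like the other combinations with the block after seeing the data, called 1 (PSMF1), 1 (PSMD3, higher) and 4 (PSMA7, PSMB6, PSMD10 and PSMF1). Genes called over all genes (7) numbered 846 with the block, 0 with the block and no trend, 4 with no trend, 11 after quantile normalization, 20 with centred medians, 19 with the mean of probe sets, 31 without _x_at and _s_at, 747 with the batch and 196 in replicates 2 and 3 alone. With the block they were 773 and 883 at pseudocounts 1 and 64, 270 with no filter, 759 and 1014 at percentiles 30 and 70, 966 after quantile normalization, 743 centred, 597 with the mean of probe sets and 571 without _x_at and _s_at. Leaving out single arrays, or replicate 2 or 3 of both groups, gave 0 to 22 without the block (22 without trypsin-2 replicate 1), and leaving out a number of both groups gave 486, 405 and 802 with it, in the order of the number left out. Among related lists, called genes (0) were 2 in the immunoproteasome and 1 each in the associated and shuttle lists with the block or batch, 1 (PSMB9) in replicates 2 and 3 alone, 1 to 2 and 0 to 1 in blocked fits with a number left out, and 1 assembly chaperone (PSMG2) without number 3. The PSMB10 to PSMB7 difference of 0.04 lay between -0.13 and 0.25 without single arrays. The causes were not tested. Pairing the arrays left the 3 ratio differences as they were (0.79, 0.35 and 0.04). With 3 arrays a group, the 95% interval of a typical subunit reached 0.23 to either side on the log2 scale, and 0.15 with the block.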
